A study of Sorghum bicolor with 14 samples.

Results

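The middle stem internode of sweet sorghum (Sorghum bicolor, variety ICSV12012) was compared between soft dough, when the grain is being filled with starch, and booting, when the head still lies inside the flag leaf sheath. Plants of both groups were sown directly in a soil bed with nitrogen fertilizer, watered at intervals, and sampled with no drought treatment. Each group has 2 libraries of total RNA, which the deposited file gives as a single FPKM value per locus and group (FPKM, a fragment count corrected for transcript length and sequencing depth). The file also holds floral initiation and the milky stage from the same bed, and 3 groups of potted plants that were denied water from the flag leaf stage and harvested at booting at about 13% (D1), 7% (D2) and 2% (D3) soil moisture, quantified in a separate table.

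Loci entered the comparison if they carried the name of a single gene and reached 1 FPKM at booting or at soft dough. This left 16175 of 31539 loci named for a single gene, in a development table of 34755 loci. Another 1213 loci joined several genes and 2003 had no gene name. Values of D1 to D3 were matched to the compared loci by gene name, with the first entry of a name kept. Of 15854 compared loci named there, 12319 had the same coordinates, and the others have other bounds in the drought groups. The difference of a locus is that of log2(FPKM + 1), soft dough minus booting, and loci with a difference of at least 1 in either direction, that is 2-fold with the offset, are counted. Because there is 1 pooled value per group, no difference has a replicate check, no test was made, and no standard deviation or p-value belongs to any value here. In whole stem tissue, fewer cells of a type and less RNA per cell cannot be told apart.

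The stem of sweet sorghum is a storage organ as well as a support. Before the head emerges the internodes still elongate and lay down cell walls, while after flowering elongation has ended, the parenchyma of the pith fills its vacuoles with sucrose, and the developing grain becomes a second sink for sugar. Booting comes before flowering and soft dough after it, but the values here do not show whether these internodes were elongating or storing sugar. The file gives a sorghum gene identifier but no product for its loci, and the reference table used here matched 0 of the 31539 identifiers, so genes of sugar transport, cell wall synthesis or the markers of internode tissue could not be picked out by product. The results below therefore describe loci by identifier, place, level and course over the stages.

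More loci were lower than higher at soft dough. Of the 16175 loci, 2214 were at least 2-fold lower (13.7%) and 1399 at least 2-fold higher (8.65%), together 3613 (22.3%). The gap was wider among large differences: 556 loci were at least 4-fold lower and 191 at least 4-fold higher, and 154 were at least 8-fold lower against 50 higher. Most loci stayed close to their booting value, with a median difference of -0.01 and with the central 50% of loci between -0.57 and 0.48. The ranks of the loci at the 2 stages had a Spearman's rho of 0.87, a correlation across genes, which are not independent replicates. At or above 1 FPKM were 15438 loci at booting and 14948 at soft dough, 14211 of them the same loci.

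**Figure D1:**
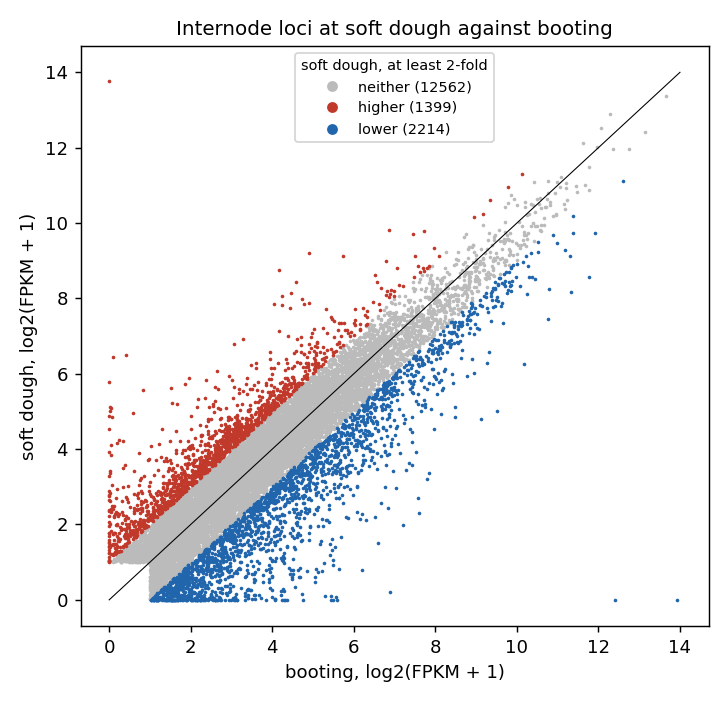
Level of each of the 16175 loci at booting (horizontal axis) and at soft dough (vertical axis), both as log2(FPKM + 1), with the line of equal values. The 2214 lower loci (blue) spread farther from the line than the 1399 higher ones (red), and the points on the axes are loci at or near 0 FPKM in 1 of the stages.

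The widest rise among loci with a value above 0 at both stages was that of Sobic.004G340300 (chromosome 4, 67209417 to 67213650). It was at 0.0589 FPKM at booting and 86.6 at soft dough, a log2 difference of 6.37, with 35.8 at floral initiation and a listed 0 at the milky stage. Its course over the stages was therefore not a steady one, and in the potted plants it stood at 113, 23.2 and 59.8 FPKM in D1, D2 and D3. Sobic.001G418600 (chromosome 1, 69932393 to 69935701) was at 0.327 FPKM at booting and 89.1 at soft dough (6.09). It was also low at floral initiation (0.828 FPKM) and already high at the milky stage (65.5 FPKM), and its values in D1, D2 and D3 were 4.37, 24.9 and 33.0. Unlike the first locus, it was low at both early stages and high at both late ones.

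In the other direction, Sobic.003G217632 (chromosome 3, 55308083 to 55311807) was at 117 FPKM at booting and 0.150 at soft dough, a log2 difference of -6.68. It stood at 61.5 FPKM at floral initiation and 0.465 at the milky stage, so it was high before flowering and near 0 after it, while D1, D2 and D3 had 1.35, 3.63 and 16.2. Sobic.003G428800 (chromosome 3, 73205204 to 73210973) was at 46.3 FPKM at booting and 0.0606 at soft dough (-5.48), with 26.3 at floral initiation and 0.522 at the milky stage. The potted plants, although harvested at booting, were all under 1 FPKM at this locus, at 0.130, 0.0523 and 0.812. Among loci above 0 FPKM at both stages, these 4 are the 2 highest and the 2 lowest by difference.

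The lower loci held a large part of the measured expression at booting. Summed over the loci named for a single gene, the 2214 lower loci made up 26.4% of all FPKM at booting and 9.29% at soft dough, while the 1399 higher loci made up 2.44% and 10.8%. The same values chose both classes, and single loci weigh on the shares. A higher locus listed at 0 at booting held 14043 of the 667073 FPKM at soft dough. A lower locus listed at 0 at soft dough held 15565 of the 810969 at booting. The median lower locus went from 16.1 to 3.91 FPKM and the median higher locus from 4.50 to 14.6. Loci at 1000 FPKM or more numbered 100 at booting and 61 at soft dough. Of the 100 most abundant loci at booting, 28 were at least 2-fold lower at soft dough and 1 was higher, but of the 100 most abundant at soft dough, 5 were lower and 9 higher, and 68 loci belonged to both sets. Each of these sets was chosen by a level that enters the difference, so the counts only describe them.

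Lower loci were most frequent at the low and the high end of the range of levels. Where the mean of both stages was under 1 FPKM, 17.3% of 670 loci were lower and 6.12% higher. These loci can have passed the minimum of 1 FPKM at 1 stage only. From 1 to 10 FPKM the shares were 13.5% and 9.32% of 7245 loci, and from 10 to 100 FPKM 12.4% and 8.81% of 6984. From 100 to 1000 FPKM 20.5% of 1193 loci were lower and 5.36% higher, and of the 83 loci above that 18.1% were lower and 4.82% higher. The loci between 1 and 100 FPKM, which are most of those compared, were thus the ones in which both directions came closest to balance. They were also the longest on the genome. From the lowest to the highest class of level, the median span was 3159, 4355, 4485.5, 3467 and 2345 bases. Level was not separated from span, which is taken up next.

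The direction of the difference followed the length of the locus on the genome. In the shortest of 10 equal classes, with spans of 111 to 1660 bases, 40% of loci were lower at soft dough and 6.49% higher, and the median difference was -0.74. In the longest class, above 10649 bases, 6.06% were lower and 16% higher, with a median of 0.39. Shares of lower loci fell over the first 9 classes, and higher loci outnumbered lower ones from the sixth class on. The median span was 2483 bases for lower loci, 5412 for higher loci and 4459 for the rest. Among loci at or above the median span, 892 were higher and 532 lower, so the excess of lower loci over the whole table comes from the shorter ones, where 507 were higher and 1682 lower.

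**Figure D2:**
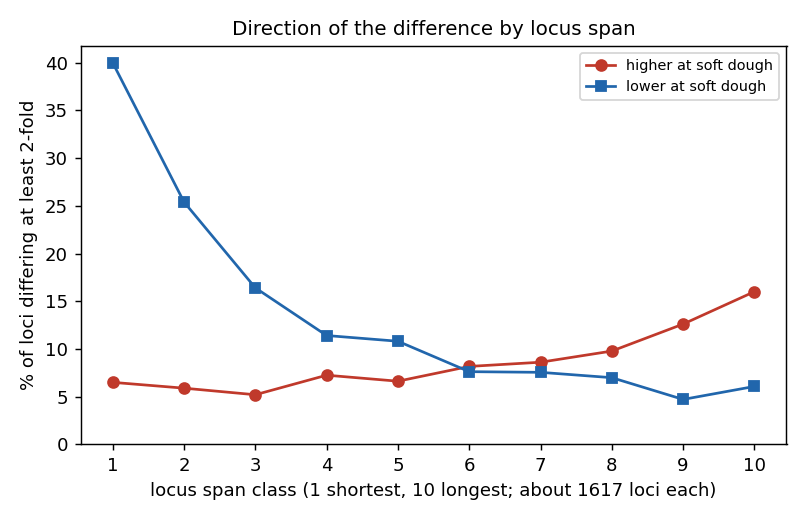
Share of loci at least 2-fold higher (red circles) and lower (blue squares) at soft dough, in 10 classes of locus span from the shortest to the longest. The lower share falls from 40% in the first class to 6.06% in the last, and the higher share rises from 6.49% to 16%.

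The relation with span moved with the booting values. Across the same 16175 loci, rho of span with the difference was 0.36 for soft dough minus booting and 0.32 for the milky stage minus booting, and -0.21 for booting minus floral initiation. It was 0.08 for the milky stage minus floral initiation and -0.0032 for soft dough minus the milky stage, and 0.01 for D3 minus D1 over 15854 loci. Short loci were thus relatively high at booting alone among the 4 stages. The summed FPKM over single-gene loci was also highest at booting, at 810969, against 594048 at floral initiation, 661933 at the milky stage and 667073 at soft dough. These loci share libraries and processing, span is a stand-in for transcript length, and the part of RNA quality or library preparation in this pattern was not tested. When the median difference of each of 20 span classes was subtracted, an alternative chosen after seeing the data, 1330 loci were higher and 1740 lower.

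By chromosome the shares varied little. Lower loci ranged from 11.8% on chromosome 4 to 15.9% on chromosome 5, and higher loci from 7.18% on chromosome 8 to 10.3% on chromosome 4. Lower loci outnumbered higher ones on all 10 chromosomes. The medians by chromosome lay between -0.06 (chromosome 7) and 0.03 (chromosome 6), so no chromosome as a whole stood at another level.

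At a finer scale, a differing locus was followed by one of the same direction in a somewhat larger share of cases than other loci were. The next compared locus along the chromosome was itself lower for 18.4% of lower loci, 13% of higher loci and 12.9% of the rest. It was higher for 12.4% of higher loci, 7.64% of lower loci and 8.43% of the rest. In 24 places at least 4 compared loci in a row differed in 1 direction, 19 times lower and 5 times higher, with 82 and 21 loci in all. Some of these loci are short and some may be near-identical copies of each other, between which fragments cannot be placed with certainty. In 6 of the run loci, coordinates are shared with another compared locus. With the span trend removed, 10 of the 24 runs kept every locus at 2-fold or more.

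A run of 4 higher loci on chromosome 8 (61611072 to 61636640) was seen at soft dough and was at or near 0 in every other group. In order along the chromosome the loci stood at 8.78, 22.03, 6.39 and 7.26 FPKM at soft dough. At booting the first 3 are listed at 0 and the last was at 0.0549, and at the milky stage all 4 were between 0.0200 and 0.236 FPKM. At floral initiation none exceeded 0.301. In D1 all 4 are listed at 0, and in D2 and D3 none exceeded 0.228. No other locus of the table lies inside the run, and all 4 kept their call with the span trend removed, although their median span was 1049 bases, in the class where most differing loci were lower.

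Another run of higher loci was set apart by booting and not by soft dough. Its 5 compared loci on chromosome 7 (8103024 to 8175803) had between 1.35 and 28.6 FPKM at soft dough, from 1.27 to 25.4 at the milky stage, and from 0.694 to 16.7 at floral initiation. At booting 4 of them were at 0.106 FPKM or below, with the most abundant listed at 0, and only the second, at 3.25 FPKM against 7.62 at soft dough, was clearly present. The drought groups, also of booting age but grown in pots, had 29.0, 15.4 and 18.8 FPKM at the most abundant locus. The potted plants of booting age therefore did not share the value of 0 listed for the booting group from the soil bed. Another 3 loci of the table lie inside this run.

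The longest run was one of 7 lower loci on chromosome 2 (66529281 to 66555074), which peaked together at booting. At that stage the loci stood at 2.85, 18.7, 22.5, 4.05, 24.1, 15.03 and 14.4 FPKM. At soft dough they were at 0.0922, 1.35, 0.273, 0.101, 0.514, 0.0611 and 0.248 FPKM, and at the milky stage none exceeded 0.571, with 3 listed at 0. At floral initiation the second and the fifth were at 8.94 and 9.86 FPKM and the others under 1. In D1 the first and the fourth were under 1 FPKM and the others between 1.06 and 6.74, and in D2 and D3 none exceeded 4.57. Their median span was 821 bases, and 6 of the 7 stayed at least 2-fold lower with the span trend removed. Another 4 loci of the table lie inside this run and do not belong to it.

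A run of 4 lower loci on chromosome 7 (8904277 to 8924806) was far more abundant and fell at each stage. From floral initiation to soft dough the second locus of the run went from 342 to 162, 69.7 and 11.4 FPKM. The first went from 195 to 61.3, 38.7 and 11.03, the third from 84.7 to 69.95, 35.5 and 3.39, and the last from 71.98 to 39.8, 35.2 and 3.32. For all 4 the widest step, as a ratio, was that after the milky stage. In the potted plants all 4 were highest in D2 and lowest in D3, at 61.9 and 35.7 FPKM for the second. The 4 loci kept their call with the span trend removed.

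A run on chromosome 5 (17625427 to 17836509) held 4 lower loci, of which 3 were higher at booting than at any other stage. Its middle loci, the second and the third, were under 1 FPKM at floral initiation, at 43.1 and 24.5 FPKM at booting, at 12.1 and 2.11 at the milky stage and at 1.53 and 0.516 at soft dough. In D1 and D3 both were under 1 FPKM, with 0.967 and 1.098 in D2. The first locus of the run, at 9.49 FPKM at booting and 0.190 at soft dough, kept higher values in the drought groups (1.88, 4.75 and 6.31 FPKM). The fourth, at 2.36 FPKM at floral initiation and 2.26 at booting, did not peak there, and stood at 0.896 at the milky stage and 0.346 at soft dough. Neighbours that shared the decline to soft dough thus differed in the potted plants. Another 3 loci of the table lie between them.

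**Figure D3:**
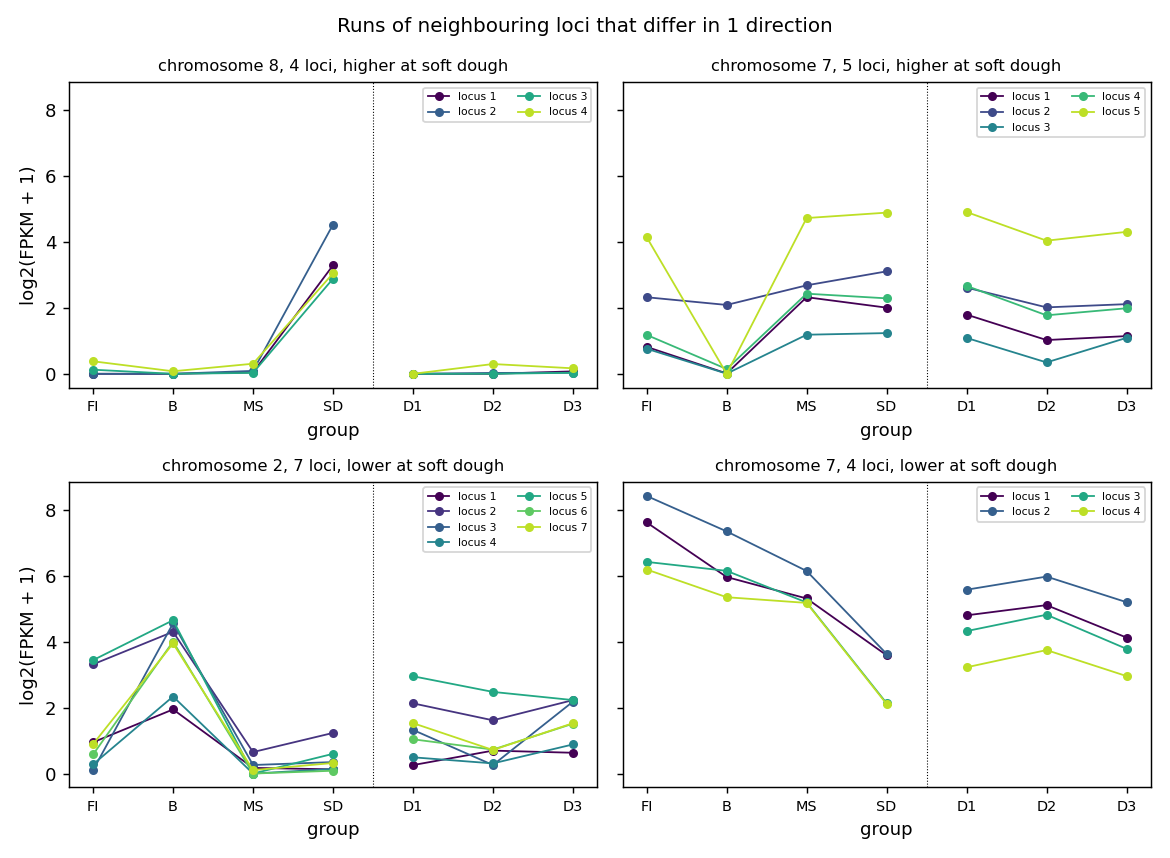
Level of each locus, as log2(FPKM + 1), in 4 of the runs, at floral initiation (FI), booting (B), the milky stage (MS) and soft dough (SD) and, right of the dotted line and from a separate table, in D1 to D3. The chromosome 8 loci are above 6 FPKM at soft dough alone, 4 of the 5 loci of the higher chromosome 7 run drop to 0.106 FPKM or below at booting, the chromosome 2 loci peak at booting, and the lower chromosome 7 loci fall at each stage.

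Most of the difference of the lower loci was already there at the milky stage. For the median lower locus the milky stage had covered 91.3% of the way from the booting to the soft dough value on the log2 scale, and for the median higher locus 63.8%. Of the 2214 lower loci, 915 (41.3%) were at or below their soft dough value at the milky stage, 1088 (49.1%) lay between and 211 (9.53%) were at or above the booting value. Of the 1399 higher loci, 328 (23.4%) were at or past the soft dough value, 903 (64.5%) between and 168 (12%) at or below the booting value. A step of at least 2-fold between booting and the milky stage was found for 1446 lower and 584 higher loci, and one after the milky stage for 449 and 340. The booting and soft dough values chose these loci, so their course between them is a description.

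Floral initiation splits the differing loci further. For 894 lower loci (40.4%) floral initiation was nearer to booting and the milky stage nearer to soft dough on the log2 scale. These loci were higher before flowering than after it. For 737 (33.3%) both were nearer to soft dough, so that booting was the highest stage, though the others need not be low. For 281 (12.7%) both were nearer to booting, so that most of the fall came after the milky stage. For 302 (13.6%) floral initiation was nearer to soft dough and the milky stage to booting. Among the higher loci the same 4 courses were taken by 472 (33.7%), 391 (27.9%), 315 (22.5%) and 221 (15.8%). The course with both nearer to booting, in which most of the change came after the milky stage, was thus taken by 22.5% of higher and 12.7% of lower loci.

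**Figure D4:**
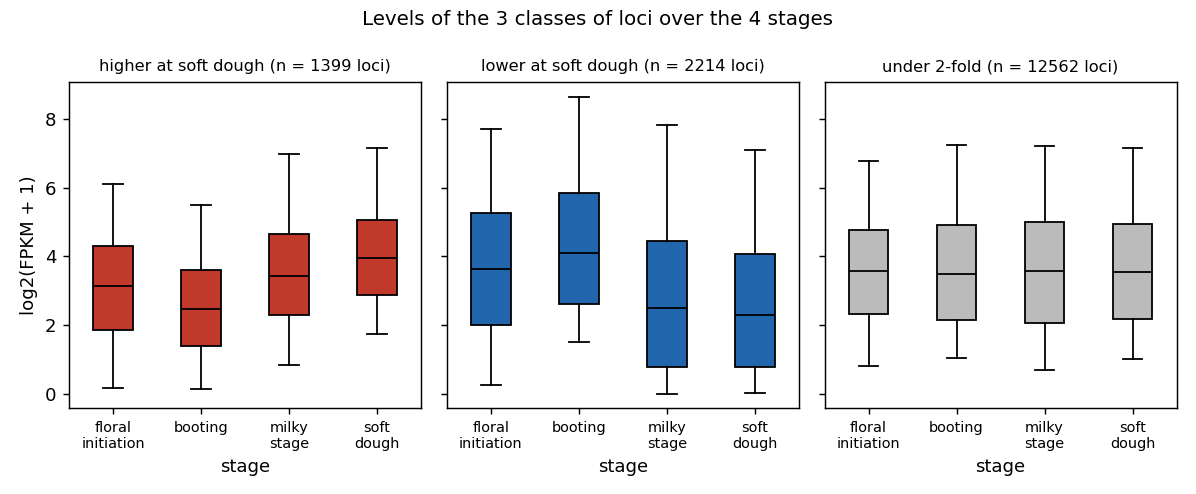
Levels of the higher, lower and remaining loci at the 4 stages as log2(FPKM + 1), with the median (line), the quartiles (box) and the 5th and 95th percentiles (whiskers) over loci. The median higher locus goes from 4.50 FPKM at booting to 9.73 at the milky stage and 14.6 at soft dough, the median lower locus from 16.1 to 4.64 and 3.91, and the remaining loci stay near 10 FPKM.

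The milky stage and floral initiation share no library with booting and soft dough, and their difference can be read for the same loci. Of all 15531 compared loci that reached 1 FPKM in either of these stages, the milky stage had 20.8% lower and 18.6% higher by 2-fold or more. Of the 1982 such loci that were lower at soft dough than at booting, 51.7% were lower and 15.3% higher at the milky stage, with a median of -1.06. Of the 1345 that were higher at soft dough, 29.1% were higher and 13.7% lower, with a median of 0.29. The loci lower at soft dough, 1982 of the 15531, made up 31.7% of all those lower at the milky stage. The loci higher at soft dough, 1345 of the 15531, made up 13.5% of all those higher. Loci of both classes thus tended to differ in the same direction between an early and a late stage that the comparison had not used. Like the main pair, these stages are 1 pooled value each.

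The drying groups, which also share no library with the main pair, gave no such direction. Of 14636 compared loci that reached 1 FPKM in D1 or D3, 5.41% were at least 2-fold higher and 4.73% lower in D3. These loci were matched by gene name, and some have other coordinates in the drought groups. Among the loci lower at soft dough 11.9% of 1833 were higher and 10.8% lower in D3, and among those higher at soft dough 9.25% of 1222 were higher and 7.12% lower. Median differences were 0.04 and -0.02. Both classes thus had larger shares of differing loci between D1 and D3 than all loci had, and in both directions. The loci that differed at neither threshold between booting and soft dough stood below the background in both directions, with 3.97% higher and 3.52% lower in D3.

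**Figure D5:**
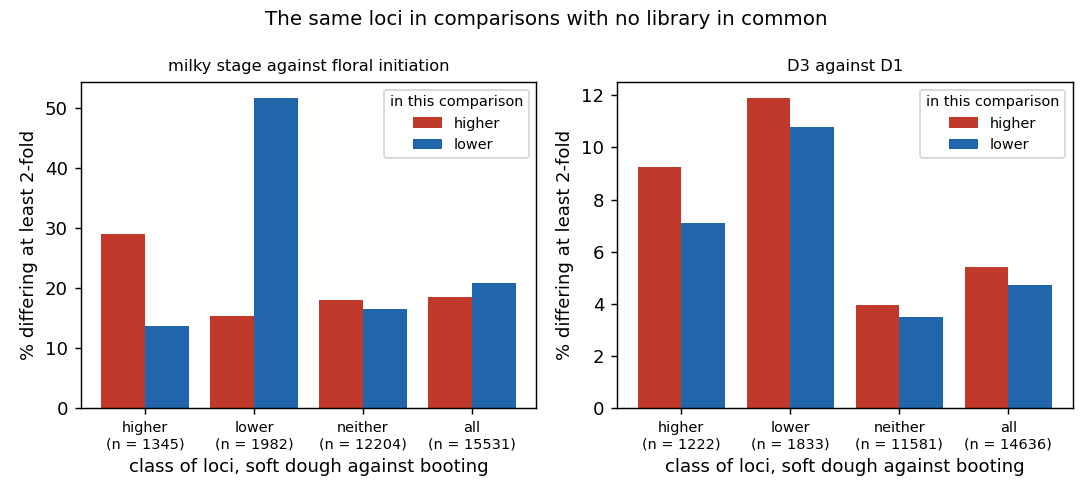
Share of loci at least 2-fold higher (red) and lower (blue) at the milky stage against floral initiation (left) and in D3 against D1 (right), for loci that were higher, lower or neither at soft dough against booting and for all. On the left the lower loci are lower in 51.7% of cases against 20.8% of all loci, and on the right both classes exceed all loci in both directions.

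A few loci were present at 1 of the 2 stages and close to 0 in all other stages. At soft dough alone 7 loci reached 1 FPKM with all 3 other stages under 0.1, 3 of them in the chromosome 8 run, whose second locus was the only 1 of the 7 above 10 FPKM. At booting alone there were 39 such loci, against 48 at floral initiation alone and 3 at the milky stage alone. Of the 39 at booting, 2 were above 10 FPKM. The higher of these 2 (chromosome 5, 59525286 to 59527098) was at 43.7 FPKM at booting and is listed at 0 in the other 3 stages, with 0.0163, 0.402 and 5.75 FPKM in D1, D2 and D3. Of the 39 loci, 5 reached 1 FPKM in D1, 5 in D2 and 14 in D3. The 7 loci at soft dough alone gave 2, 2 and 1. Among all 15854 compared loci with drought values, 14636 reached 1 FPKM in D1 or D3. The share in each single group was not counted, so these numbers describe the few loci alone.

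The reverse pattern, under 0.1 FPKM at 1 stage and at least 1 FPKM at the 3 others, was shown by 19 loci at booting and 4 at soft dough. It was shown by 54 loci at floral initiation and 23 at the milky stage, so it was not particular to booting. A neighbouring pair on chromosome 10 was among the 19. Its first locus (2001942 to 2005576) was at 0.0102 FPKM at booting and 31.0 at soft dough, with 5.73 at floral initiation and 22.7 at the milky stage. Its second (2009138 to 2013860) was at 0.0362 and 33.1 FPKM, with 15.5 and 38.2. In D1 and D2 the pair stood at 33.3 and 16.8 and at 26.5 and 23.9 FPKM, but in D3 at 0.0092 and 0.0108, so that both loci were near 0 in the same groups. Of the 19 loci 14 reached 1 FPKM in D3, 11 in D2 and 8 in D1. The share of all compared loci in each of these groups was not counted, so no trend is read from these numbers.

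Values of exactly 0 need care. Among the compared loci 30 are listed at 0 at booting and 100 at soft dough, and 7 of these had 30 FPKM or more at the other stage. One on chromosome 1 (11339408 to 11340551) is listed at 0 at booting but stood at 14043 FPKM at soft dough, 4737 at the milky stage, 16363 at floral initiation and between 19774 and 20318 in the drought groups. One on chromosome 2 (69501545 to 69504021) was at 15565 FPKM at booting and is listed at 0 at the milky stage, soft dough and D3, with 12085 and 14660 in D1 and D2. A further one on chromosome 1 (1169606 to 1171177) stood at 337, 5415 and 10639 FPKM over the first 3 stages and is listed at 0 at soft dough alone. Loci of such abundance may be at 0 because an estimate failed, so they are counted above but no fold is given. Without all loci listed at 0, 1369 were higher and 2114 lower.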

How the data were processed

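RNA was measured in 14 libraries of 7 groups. The labels give the stage or condition of each, with 2 libraries a group, and do not say whether these came from separate plants. Per the file headers the unit is FPKM, and the deposited table has a single value per group. The submitters' processing notes name Bowtie2 2.2.9, HISAT2 2.0.5, cutadapt 1.8.1 and Cuffdiff, and the labels' protocols a stranded total RNA kit. The genome build, and the way libraries were merged into a group value, are not given in the sources used here. Positions are printed as deposited, with no statement whether starts count from 0 or 1.

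Fragment totals are unknown, so no interval or detection limit is given. Among 2940 loci above 0 and under 0.3 FPKM at both stages, ratios of soft dough to booting piled up at 0.94, 0.47 and 1.88. These are near the steps for 1 to 1, 1 to 2 and 2 to 1 whole fragments. If they are such steps, a fragment was worth about 0.94 times as much at soft dough as at booting. That was not tested, since the way libraries were merged is not given.

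Differences were computed with Python 3.11.15, pandas 2.3.3, numpy 2.4.6 and scipy 1.17.1, and the counting step was tested on simulated data. The members, lists and thresholds were chosen with earlier results of these data known. Gene lists by product name (internode, grain, pollen, root and green tissue markers among them) and promoter motifs were planned and could not be formed, since the reference table used (Sorghum_bicolor_NCBIv3) matched 0 identifiers. The naming rule then gives the 2 highest and the 2 lowest loci above 0 at both stages, and every other locus or run described was chosen after its values were seen. Fragments of close copies or overlapping loci cannot be placed from these values, and 1376 compared loci share coordinates with another. Alternatives were other offsets, minima, scalings and thresholds, and, added after seeing the data, removal of the span trend and a split at the median span. Of the 7 value columns 0 belong to other samples.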

Additional observations from a re-analysis of the deposited data

How the results depend on the processing

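Lower loci outnumbered higher ones with offsets of 0.1 and 5, and when loci had to reach 5 FPKM. They also did so after quantile normalization or median-of-ratios scaling, and without loci listed at 0. The same held with joined loci kept, at the 4-fold threshold and with the span trend removed. Among loci at or above the median span, lower loci did not outnumber higher ones. Dropping the minimum could not change the counts. With an offset of 1, a locus under 1 FPKM at both stages cannot reach a log2 difference of 1. All 31539 loci therefore gave the same 1399 higher and 2214 lower. An offset of 5 gave 1697 differing loci (535 higher, 1162 lower), fewer because it shrinks differences of low loci, and the 4-fold threshold 747 (191 and 556, or 25.6% higher). Loci at or above the median span gave 1424 (892 and 532, or 62.6% higher) and those below it 2189 (507 higher, 23.2%). Quantile normalization gave 1577 higher and 1929 lower, with a median over all loci of 0.07. The number of runs moved most, to 46 with an offset of 0.1, 4 with an offset of 5, 12 with a minimum of 5 FPKM, 5 with no minimum and 3 at the 4-fold threshold, and to 15 with the span trend removed. The 4 loci given by identifier were picked as the widest differences, so a fall under 2-fold was hardly possible. Their values only describe the settings run on them. They went from 4.18 to 9.09 for Sobic.004G340300, 4.14 to 7.71 for Sobic.001G418600, -8.87 to -4.57 for Sobic.003G217632 and -8.17 to -3.34 for Sobic.003G428800. The rho of span with the difference stayed between 0.34 and 0.37 over the offsets, scalings and minimum tried. No paired analysis was possible because the file holds 1 pooled value per group, and for the same reason no replicate could be left out. Fragment totals are unknown, so what depth limits could not be measured.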

Other observations

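Transcribed loci without a gene name were also more often lower than higher at soft dough. Of the 2003 unnamed loci of the 4 stages, 932 reached 1 FPKM at booting or soft dough, of which 21% were at least 2-fold lower and 11.8% higher at soft dough, with a median difference of -0.10, against 13.7% and 8.65% of the loci named for a single gene. Their median span was 2691 bases. Single-gene loci with spans of 2400 to 3054 bases had 16.4% lower and 5.19% higher. The lowest by difference with a value above 0 at both stages (chromosome 3, 38335041 to 38369582) stood at 6.56, 358, 427 and 3.82 FPKM from floral initiation to soft dough. It was therefore high at the middle stages of the series alone. The highest (chromosome 6, 43775787 to 43778847) was at 0.0338 FPKM at booting, 49.4 at the milky stage and 17.0 at soft dough, with 7.05 at floral initiation. Among 1115 compared loci that join several genes, whose median span was 9536 bases, 12.5% were lower and 9.33% higher. These shares were close to those of all single-gene loci. They were unlike those of single-gene loci with spans of 7453 to 10645 bases, of which 4.7% were lower and 12.6% higher.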
